A study of Mus musculus with 6 samples.

Results

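The 6 actin genes of the mouse were followed across 6 Affymetrix arrays, 3 labelled control and 3 labelled MBELN. The genes were chosen by symbol. They are Acta1 (skeletal muscle), Actc1 (cardiac muscle), Acta2 (vascular smooth muscle), Actg2 (enteric smooth muscle) and the cytoplasmic actins Actb and Actg1. Of the 6, 5 had a probe set named by the platform annotation, out of 19505 different gene symbols, and each of the 5 had 1 probe set. Actg1 carried no named probe set and its level was not analysed here.

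Every array was labelled as colon of C57BL/6J mice. MBELN stands for nanoparticles resembling exosomes that were prepared from mulberry bark, and treated mice received them by mouth in 100 µl daily until tissue was taken after 7 days. The 3 control arrays were titled PBS and labelled as control mice, with 100 µl and 7 days recorded for them too. Whether different animals stand behind the 3 arrays of a group is not stated in the labels. The p-values therefore cover the spread among these arrays alone. That spread includes markers of different tissues, given further on, and its technical part cannot be told apart. Neither age, sex nor pooling of the mice is given.

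Actin monomers polymerise into filaments that form the thin filaments of muscle and the cytoskeleton of every cell. Muscle types each rely on their own alpha or gamma isoform, and the cytoplasmic isoforms are made in nearly all cells. The proteins differ little from one another, so the tissue in which each gene is transcribed is the main thing that sets the isoforms apart. Several actin genes are known to be controlled through CArG boxes, the binding sequence of serum response factor (SRF), which muscle coactivators join.

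Of the 6 genes, 4 had a promoter window in the RefSeq table used here (build GRCm38.p6, 250 bases before to 50 after the annotated start, all 4 on the minus strand): Acta1, Actc1, Acta2 and Actg1. The last 120 bases before each start are shown, read 5′ to 3′ along the gene's strand, because all 4 hold a CArG-type sequence there, and the 3 of them that were measured differ in the arrays on which they are high. Capitals mark an exact CArG box (CC, then 6 letters of A or T, then GG), TATAAA and, in Acta2, which has no exact box, the form with 1 letter changed. The stretches are chr8:123894776-123894895 for Acta1, chr2:114052876-114052995 for Actc1, chr19:34255374-34255493 for Acta2 and chr11:120348496-120348615 for Actg1.
Acta1: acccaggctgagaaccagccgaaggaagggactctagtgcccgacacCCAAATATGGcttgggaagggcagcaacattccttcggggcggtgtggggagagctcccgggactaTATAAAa
Actc1: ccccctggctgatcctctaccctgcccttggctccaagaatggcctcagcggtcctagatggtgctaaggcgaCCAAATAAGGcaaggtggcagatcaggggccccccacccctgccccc
Acta2: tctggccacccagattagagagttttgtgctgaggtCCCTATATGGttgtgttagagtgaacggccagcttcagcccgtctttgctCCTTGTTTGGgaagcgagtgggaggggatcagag
Actg1: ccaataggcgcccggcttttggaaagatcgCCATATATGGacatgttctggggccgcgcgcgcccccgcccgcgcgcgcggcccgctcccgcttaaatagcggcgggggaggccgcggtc

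Acta1, Actc1 and Actg1 each held 1 exact CArG box in the window, which reads as a CArG box on both strands. Exact boxes stood in 1.63% of 32851 promoter windows of the same length. Acta2 held no exact box but 2 sequences with 1 letter changed, a form found in 21.1% of windows when exact boxes are counted with it. Acta1 and Actc1 also held sequences with 1 letter changed, beside their exact boxes. In Actc1 that from -87 to -78 lies in the stretch shown, in lower case. That looser search was chosen after the data were seen. The muscle sequence CATTCC, searched on both strands, was in the windows of Acta1 and Acta2 and in 14.7% of all windows. TATAAA was in those of Acta1 and, after the annotated start, Actc1, and in 13.6% of all windows. These matches describe letters and show no binding.

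Genes typical of colon were largely missing from 5 of the 6 arrays, and 4 of these 5 carried markers of other tissues. The labels may thus not match the arrays, and every difference between MBELN and control given here is a difference between arrays so labelled. Values of a single array have no replicates. Values are log2 expression per probe set. A probe set was counted as above background where it exceeded the 95th percentile of the negative control probe sets on the same array, a threshold between 7.93 (MBELN 1) and 10.11 (control 2). Of all 22206 probe sets, MBELN 1 had 27.7% above background, control 1 had 26.0%, MBELN 3 had 23.1%, control 3 had 20.7%, MBELN 2 had 14.3% and control 2 had 0.311%. Colonocyte markers were above background in 9 of 10 genes on control 1, in 1 of 10 on MBELN 3 and in 0 of 10 on the other arrays. Housekeeping genes aside, the lists with the highest median level were neuron and oligodendrocyte on control 3 (7 of 8 genes above background), cardiomyocyte on MBELN 1 (7 of 8), keratinocyte on MBELN 2 (7 of 7) and hepatocyte on MBELN 3 (8 of 8). Skeletal muscle fibre on MBELN 2 (8 of 9) and endothelium on MBELN 1 (6 of 6) were also mostly above background. On control 2, 0 of 9 housekeeping genes were above background. In such bulk RNA, fewer cells of a type and less RNA per cell cannot be told apart.

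The 5 measured actin genes formed 5 different patterns over the arrays. On MBELN 1, with its cardiac markers, 4 of the 5 were above background. Control 1, with its colon markers, had 3, MBELN 2, with skin and skeletal muscle markers, had 2, and control 3 and MBELN 3 had 1 each, which was Actb. Control 2 had 0. Of all probe sets, 27.7% were above background on MBELN 1, 26.0% on control 1 and 14.3% on MBELN 2. On control 3 the share was 20.7%, on MBELN 3 23.1% and on control 2 0.311%. The counts of 1 on control 3 and MBELN 3 lie near those shares. All 5 genes were above background on 1 or more arrays, against 42.8% of all probe sets, 2 of 5 (Actc1 and Actg2) on exactly 1 array, against 15.8%, and 0 of 5 on every array, against 0.117%. Over the 6 arrays all 5 genes spanned 10 log2 units or more, as did 4.30% of all probe sets. Without control 2 they were 4 of 5, against 2.58%. Each probe set has its own response, so a difference between genes is used only for how it changes from array to array, not for which gene is higher.

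**Figure D1:**
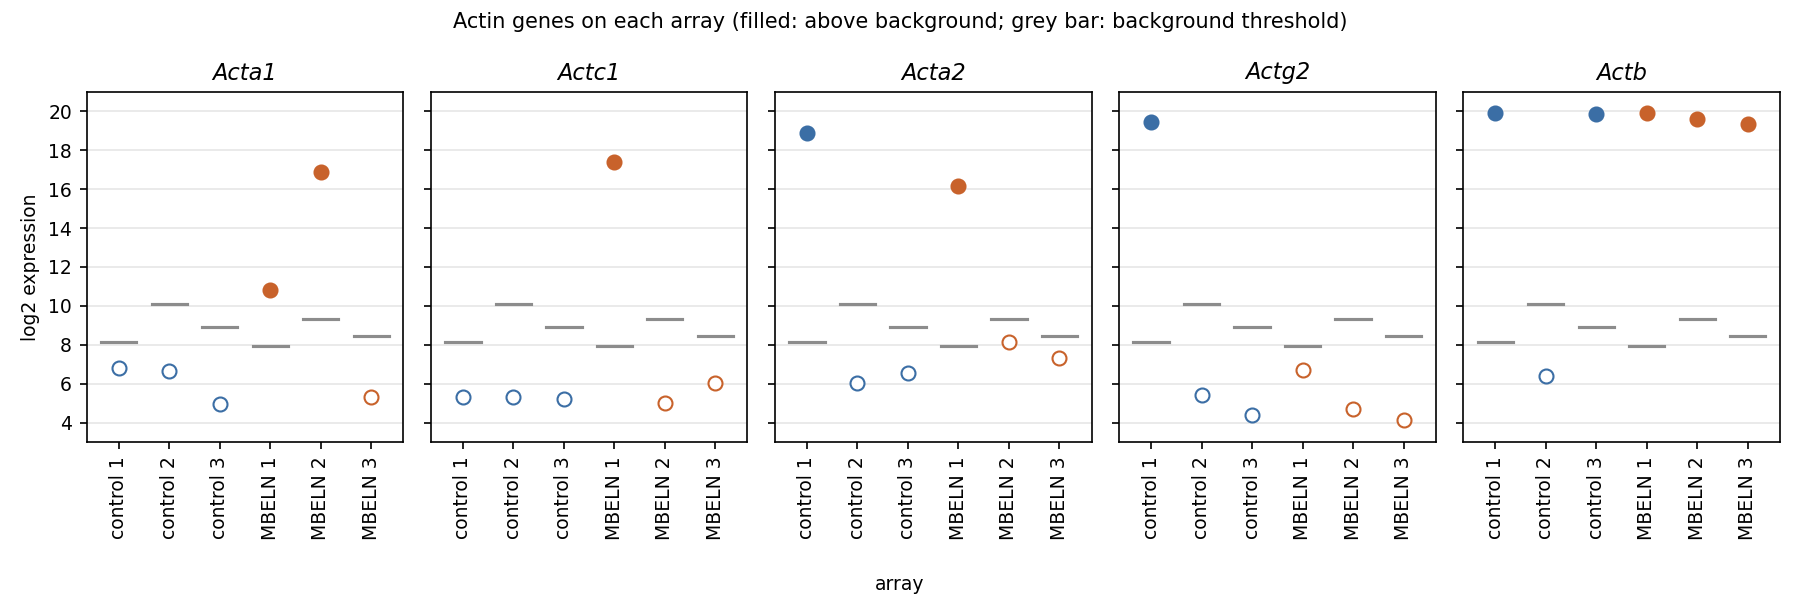
Log2 expression of the 5 measured actin genes (one panel each, vertical axis) on each of the 6 arrays (horizontal axis), with control arrays in blue and MBELN arrays in orange. Filled points lie above the array's background threshold, drawn as a grey bar, and open points do not: Actb is filled on 5 arrays, Acta1 and Acta2 on 2, and Actc1 and Actg2 on 1.

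Acta1 encodes the alpha actin of adult skeletal muscle thin filaments. Its log2 value was 16.89 on MBELN 2, 10.83 on MBELN 1, 6.83 on control 1, 6.65 on control 2, 5.31 on MBELN 3 and 4.93 on control 3. Only MBELN 2 and MBELN 1 were above background, and MBELN 2 stood 6.06 log2 units over MBELN 1. The level on MBELN 1 lay between that array's 95th percentile of negative controls, 7.93, and its 99th, 11.24, so it did not pass the stricter threshold. On MBELN 2 the fast skeletal myosin gene Myh4 was at 18.78, the fast troponin T gene Tnnt3 at 18.40 and the fast myosin light chain gene Mylpf at 16.91. On MBELN 1 these 3 genes were at 5.05, 5.18 and 4.89, all below background. Of the 9 skeletal muscle fibre markers, only Ckm, the muscle creatine kinase gene that heart also expresses, was above background there, at 14.40.

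Actc1 encodes the alpha actin of cardiac muscle. It was at 17.40 on MBELN 1 and at 6.04 on MBELN 3, 5.31 on control 1, 5.29 on control 2, 5.20 on control 3 and 5.0 on MBELN 2. MBELN 1 was the only array above background. It lay 7.29 log2 units over the highest background threshold of the others. The MBELN 2 value shows that Actc1 was not detected on the array where Acta1 was highest. The difference between Acta1 and Actc1 changed from -6.57 on MBELN 1 to 11.89 on MBELN 2. On MBELN 2 it includes an Actc1 value below background.

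Acta2 encodes the smooth muscle alpha actin of vessel walls, also made by visceral muscle and myofibroblasts. It was at 18.87, 6.03 and 6.53 on control 1, control 2 and control 3, and at 16.15, 8.13 and 7.31 on MBELN 1, MBELN 2 and MBELN 3. Control 1 and MBELN 1 were above background and 2.72 log2 units apart, and the other 4 arrays were below background.

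Actg2 encodes the gamma actin of enteric smooth muscle, the main contractile actin of the gut wall. It was at 19.47 on control 1, against 5.43 and 4.38 on control 2 and control 3, and at 6.69, 4.71 and 4.15 on MBELN 1, MBELN 2 and MBELN 3. Control 1 was the only array above background. It stood 9.36 log2 units over the highest threshold among the other arrays, which is that of control 2. The smooth muscle actins thus had different patterns: both were high on control 1, and on MBELN 1 Acta2 was above background and Actg2 was not. The difference between Acta2 and Actg2 was -0.59 on control 1 and 9.46 on MBELN 1. On the other 4 arrays, where both genes were below background, it was 0.59 (control 2), 2.14 (control 3), 3.42 (MBELN 2) and 3.16 (MBELN 3).

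**Figure D2:**
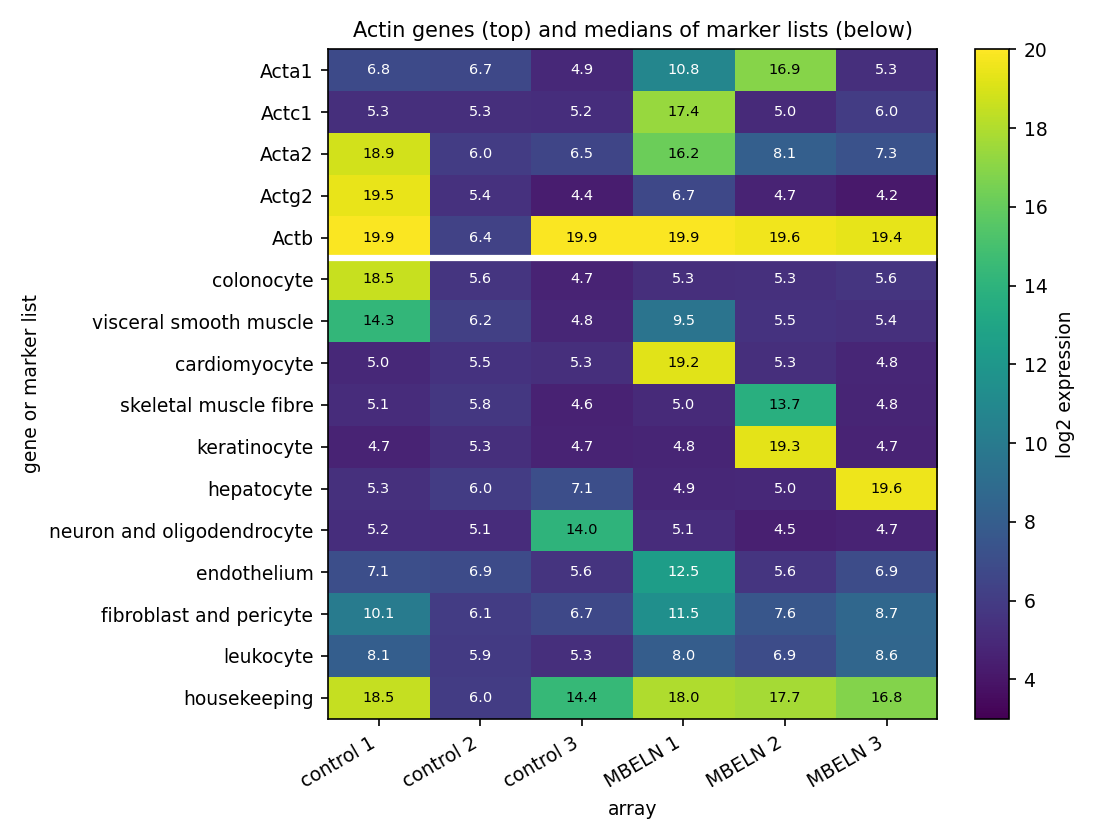
Log2 expression (colour and printed value) of the 5 measured actin genes in the upper rows and the median of each marker list in the lower rows, for the 6 arrays in columns. Actg2 is highest on control 1, as are the colonocyte and visceral smooth muscle medians, Actc1 is highest on MBELN 1 with the cardiomyocyte median, and Acta1 on MBELN 2 with the skeletal muscle fibre median.

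Other smooth muscle genes were set beside the actins on control 1 and MBELN 1. All 10 visceral smooth muscle markers were above background on control 1 and 7 on MBELN 1. Over all 10, control 1 minus MBELN 1 had a median of 3.46 log2 units, and for 8 it was larger than the 2.72 of Acta2. With the 3 genes below background on MBELN 1 set to that array's threshold, the median was 3.35 and 6 of 10 were larger. The 7 genes above background on both arrays, which the difference itself selects, had a median of 5.94, and 5 of them were larger. The comparisons over all 10 were added after the data were seen. The calponin gene Cnn1 differed by 10.06, the smooth muscle myosin heavy chain gene Myh11 by 7.78, and Tagln, which encodes an actin-binding protein of smooth muscle, by 6.49. Smtn, which encodes smoothelin, differed by 1.67, and Des, the desmin gene that heart muscle also expresses, by 0.93. For Actg2 the difference was 12.77, and the MBELN 1 value was below background. On MBELN 1, 6 of 6 endothelial markers were above background, against 0 on control 1. Of these, Cldn5 at 7.95 was barely over that array's threshold of 7.93. Neither Cldn5 nor Tie1, at 9.14, passed its 99th percentile of negative controls, 11.24. Of the 7 fibroblast and pericyte markers, 6 were above background on MBELN 1 and 4 on control 1. Their part in the Acta2 levels was not tested. Elsewhere the visceral smooth muscle list had 2 genes above background (MBELN 2), 1 (MBELN 3) or 0 (control 2 and control 3).

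**Figure D3:**
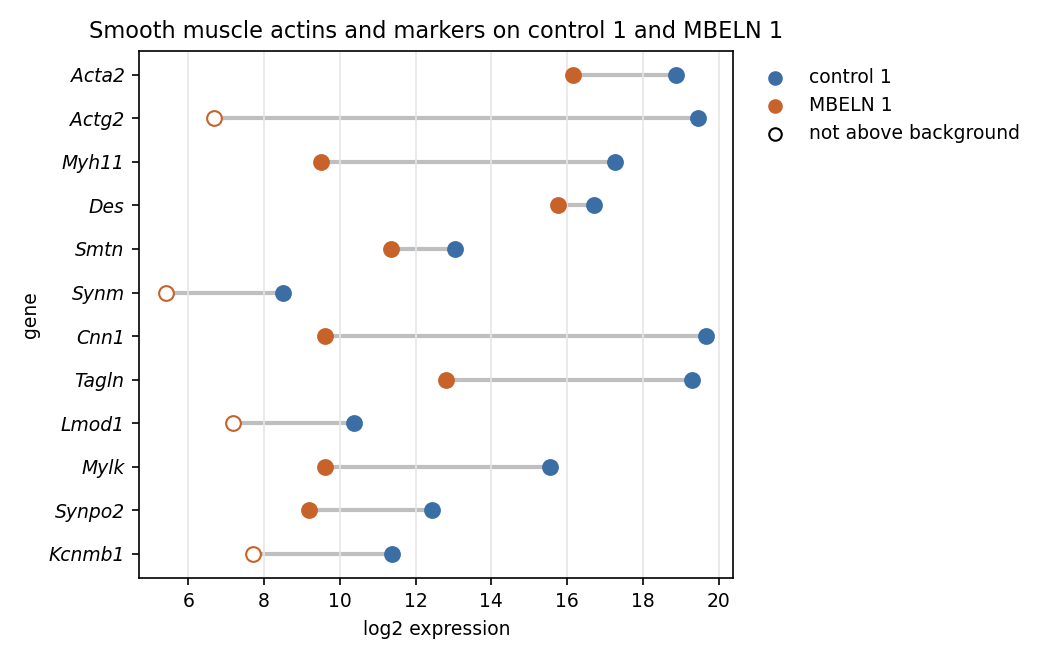
Log2 expression (horizontal axis) of Acta2, Actg2 and 10 visceral smooth muscle markers (vertical axis) on control 1 (blue) and MBELN 1 (orange), 1 array each, with open points not above background. Acta2 is at 18.87 and 16.15, and Actg2 at 19.47 and 6.69.

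Actb encodes the cytoplasmic beta actin, long used as a loading control. It was at 19.93, 6.37 and 19.88 on control 1, control 2 and control 3, and at 19.90, 19.64 and 19.36 on MBELN 1, MBELN 2 and MBELN 3. Of the 6 arrays, 5 were far above background and control 2 was below it. Across those 5 arrays Actb spanned 0.58 log2 units, while the 1879 probe sets above background on all 5 (8.46% of the table) had a median span of 2.67. Only 31 of the 1879 spanned no more than Actb. The values lie at the upper end of the scale. On control 1 Actb had the highest value in the table, 19.93, which 24 probe sets shared on that array. Actb was 1 of only 17 probe sets at 19 or more on all 5 arrays (0.0766% of the table), and 16 of the 17, Actb included, spanned no more than Actb. The part of the scale's upper limit in this small span was not tested, and no order of the 5 arrays was read from it.

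The genes with the most similar profiles were taken as those with the smallest root mean square difference over the 6 arrays after each gene's mean was subtracted, among 17119 named genes. The 6 arrays share the flat control 2 and the tissue markers above, so a small difference describes these arrays only. Actc1, Actg2 and the genes nearest to them were below background on 5 of the 6 arrays, so those distances rest on 1 array and on values without a measured order. Dmbt1 and Muc13 on control 1, and Cox7c and Rps23 on control 1 and MBELN 1, stood at the table's highest value, and no order among neighbours is read. For Actc1 the nearest were Tnni3 (0.40 log2 units), Tnnc1 (0.57) and Mybpc3 (0.87), which encode cardiac troponin I, the slow and cardiac troponin C and the cardiac myosin-binding protein C. For Acta2 they were Clic5 (0.67), Myl9, a smooth muscle myosin light chain gene (1.11), and Tagln (1.27). Actg2 was nearest to genes of gut epithelium: Dmbt1 (0.59), the mucin gene Muc13 (0.66) and the goblet cell lectin gene Zg16 (0.71). For Acta1 the nearest were Tmem45a (1.22), the keratin gene Krt80 (1.34) and Emp2 (1.51), none of which is a gene of the muscle sarcomere, and MBELN 2 was the highest array of each. Tmem45a and Krt80 were above background on MBELN 2 alone, which carried both keratinocyte and skeletal muscle markers. These distances therefore do not set Acta1 apart from sarcomere genes. Those of Actb were Cox7c (0.20), a respiratory chain subunit, the ribosomal protein gene Rps23 (0.34) and the elongation factor gene Eef2 (0.46).

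The labels set colon of MBELN-treated mice against colon of control mice, and no actin gene passed the test of that difference. In limma's test over all probe sets 0 of the 5 actin genes passed at an adjusted p under 0.05, as did 0% of 22206 probe sets, and 0 of 5 had an unadjusted p under 0.05, against 1.90% of all. The groups overlapped for all 5 genes (0 of 5 without overlap, against 6.83% of all probe sets). With only control 1 showing colon markers, this comparison cannot show whether actin genes of the colon respond to MBELN.

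Acta1 was 11.01 ± 5.79 (SD, n = 3) on MBELN arrays and 6.14 ± 1.05 (n = 3) on control arrays, a log2 difference of 4.87 (SE 2.83, limma adjusted p = 0.936). Control arrays were all below background. Against the higher of threshold and value on each control array, the MBELN mean was 3.90-fold higher. MBELN 3 is below background in that mean, so this fold is not a lower limit. Without MBELN 2 the difference was 1.93. Actc1 was 9.48 ± 6.88 against 5.27 ± 0.06, a difference of 4.21 (SE 3.30). The fold found in the same way was 1.35. It is not a lower limit either, since MBELN 2 and MBELN 3 are below background. Without MBELN 1 the difference was 0.25, with both groups below background.

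Acta2 was 10.53 ± 4.89 (SD, n = 3) on MBELN and 10.47 ± 7.28 (n = 3) on control arrays, a log2 difference of 0.06 (SE 4.18, limma adjusted p = 0.998). The sign turned with the arrays used: the difference was 4.25 without control 1 and -2.75 without MBELN 1. It was -2.17 without control 2, -1.92 without control 3 and -3.18 with array weights. Without MBELN 2 it was 1.26 and without MBELN 3 1.67. Actg2 was 5.18 ± 1.33 on MBELN and 9.76 ± 8.42 on control arrays, a difference of -4.58 (SE 4.07, limma adjusted p = 0.936). MBELN arrays were all below background. Against the higher of threshold and value on each of them, the control mean was 2.27-fold higher. Of the control arrays only control 1 was above background, so this fold is not a lower limit. Without control 1 the difference was 0.28, and it was -7.27 without control 3 and -8.62 with array weights. Without control 1 all remaining values of Actg2 were below background, so no order of the group means was measured.

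Actb was 19.63 ± 0.27 (SD, n = 3) on MBELN and 15.39 ± 7.81 (n = 3) on control arrays, a log2 difference of 4.24 (SE 3.74, limma adjusted p = 0.936). Without control 2, the array on which 0 of 9 housekeeping genes were above background, the difference was -0.27 (SE 0.33). The difference between Acta2 and Actg2 was higher on all 3 MBELN arrays than on the control arrays, 5.35 ± 3.57 (SD, n = 3) against 0.71 ± 1.37 (exact permutation test, two-sided, p = 0.1, the smallest p that 3 against 3 arrays allow). On 4 of the 6 arrays both genes were below background, so this separation is not a measured isoform change. For the difference between Acta1 and Actc1 the means were 1.53 ± 9.43 and 0.87 ± 0.99 (exact permutation test, p = 1). With 2 such tests made, the Benjamini-Hochberg adjusted values are 0.2 and 1.

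**Figure D4:**
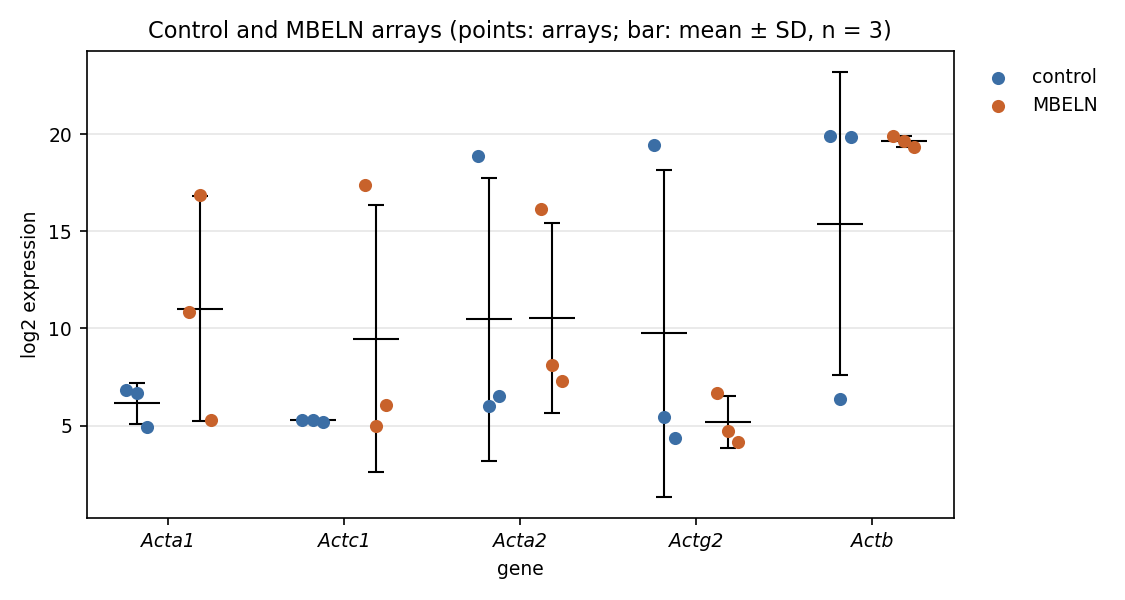
Log2 expression (vertical axis) of the 5 measured actin genes on control arrays (blue) and MBELN arrays (orange); points are arrays, and the bars give the mean ± SD of 3 arrays. The groups overlap for all 5 genes, and for Actb the control spread comes from control 2 at 6.37.

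Genes that bind, fold, modify or regulate actin were taken from 11 lists of 105 genes, of which 95 had a named probe set. None of the 95 passed limma's adjusted test in either direction, nor did any of the 22206 probe sets of the table. Of the 95, 0 had an unadjusted p under 0.05, against 1.90% of all probe sets. Their median log2 difference between MBELN and control was 0.97, with 74 of 95 above 0, beside a median of -0.01 over all probe sets and 49.6% of probe sets above 0. Without control 2 the median of the 95 was -0.12, with 44 above 0, beside a median of 0.08 over all probe sets.

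Tropomyosins, which lie along the filament, were above background in 4 of 4 genes on control 1, MBELN 1 and MBELN 2. The shares of all probe sets there were 26.0%, 27.7% and 14.3%. Tpm1 was at 19.55, 19.93 and 18.80 on those arrays, and at 13.63 on control 3 and 11.33 on MBELN 3. Tpm2 was at 17.54 on control 1 and 16.64 on MBELN 2, at 10.28 on MBELN 1 and below background on the rest. Tpm2 thus joined the array with Actg2 and the one highest in Acta1.

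Of the 12 genes that set filament length or cap filament ends, 9 were above background on MBELN 1, 7 on MBELN 2 and 4 or 5 on control 1, control 3 and MBELN 3. On these arrays, in the same order, 27.7%, 14.3%, 26.0%, 20.7% and 23.1% of all probe sets were above background. Lmod2, the cardiac leiomodin gene, was at 15.60 on MBELN 1 and below background elsewhere. Tmod1, a tropomodulin gene, was at 14.28 on MBELN 1 and 10.87 on control 3. Neb, which encodes the skeletal thin filament protein nebulin, was at 13.14 on MBELN 2 only. It lies outside the naming rule and was named after its values were seen.

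Among crosslinkers and anchors, Actn2, the alpha-actinin gene of the heart and skeletal muscle Z disc, was at 18.18 on MBELN 1, 12.21 on MBELN 2 and 9.03 on control 3. Actn4, a cytoplasmic alpha-actinin gene, was at 18.42 on control 1, below background on control 2, and from 13.71 to 13.95 on the remaining 4 arrays. In the calponin and transgelin family, Cnn1 was at 19.68 on control 1 and 9.62 on MBELN 1, and Tagln at 19.30 and 12.81, and both were below background elsewhere. The intestinal brush border bundler Pls1 was at 15.26 on control 1 and below background on all other arrays. Ezr, which encodes the membrane linker ezrin, was highest on control 1 at 16.50, followed by MBELN 2 at 14.36, MBELN 1 at 12.50 and control 3 at 9.60.

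Like Actb, the 7 turnover and folding genes named next, Tmsb4x to Setd3, were above background on the 5 arrays other than control 2 and below it there. Tmsb4x, which encodes the monomer-binding thymosin beta-4, was at 19.90 and 19.59 on control 1 and control 3, and at 19.93, 19.19 and 16.61 on MBELN 1, MBELN 2 and MBELN 3. Dstn, which encodes the severing protein destrin, ranged from 11.72 on control 3 to 18.78 on control 1. The Arp2/3 complex genes Arpc2 and Actr3 lay between 13.61 and 17.30 and between 11.47 and 15.51. Of the 7 measured Arp2/3 genes, 5 to 7 were above background on each of these arrays, against 14.3% to 27.7% of all probe sets. The chaperonin genes Cct2 and Cct5, whose products fold actin, lay between 12.30 and 13.50 and between 12.30 and 13.57. Setd3, the methyltransferase gene for an actin histidine, lay between 10.72 and 11.89. On control 2, 1 of the 95 genes was above background, against 0.311% of all probe sets. It was Twf1, a monomer-binding twinfilin gene at 10.91.

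Of the 10 measured regulators of actin transcription, 6 were above background on MBELN 1, 4 on control 3, 3 each on control 1, MBELN 2 and MBELN 3, and 0 on control 2. In the same order, 27.7%, 20.7%, 26.0%, 14.3%, 23.1% and 0.311% of all probe sets were above background. The counts on control 1 and MBELN 3 thus lie near the share of all probe sets. Srf was above background only on MBELN 1, at 9.40, where the threshold was lowest, at 7.93. It did not pass that array's 99th percentile of negative controls, 11.24. On control 1 it was at 7.98 against a threshold of 8.14, and on control 3 at 8.12 against 8.89. Myocd, the smooth and cardiac muscle coactivator gene, was below background on all 6 arrays, with 7.43 on MBELN 1 and 5.92 on control 1. Mrtfa, which reached 6.67, was also below background on all 6. No order of the arrays was measured for either gene. Mrtfb was above background on 5 arrays, between 9.66 and 12.49. Mef2c, a muscle and neuronal transcription factor gene, was at 16.06 on control 3 and 10.52 on MBELN 1. The actin-related genes Actr1a, of the dynactin complex, and Actr8, of a chromatin remodeller, lay between 10.32 and 12.66 and between 8.68 and 9.43 on the arrays other than control 2. Naa80, which encodes the actin N-terminal acetyltransferase, had no named probe set and was not analysed here.

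**Figure D5:**
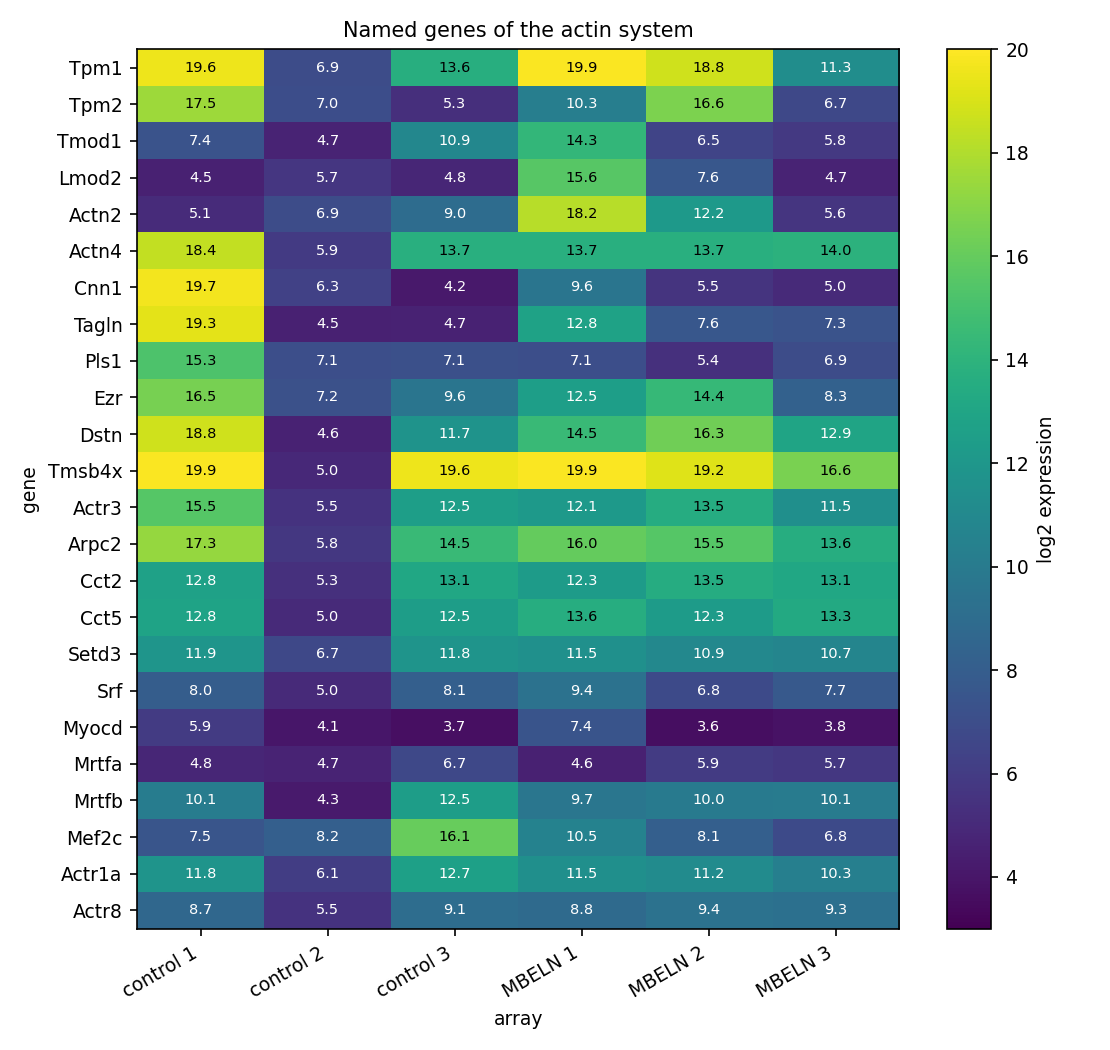
Log2 expression (colour and printed value) of 24 named genes of the actin system (rows) on the 6 arrays (columns). Sarcomeric genes such as Actn2 and Lmod2 are highest on MBELN 1, smooth muscle genes such as Cnn1 and Tagln on control 1, and Tmsb4x is at 16.61 or more on every array but control 2.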

How the data were processed

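The deposited table holds log2 expression for 28846 probe sets on 6 arrays. The log2 scale was read from the deposited values, which run from 3.38 to 19.93, the log2 of 1000000. Transcriptome Analysis Console 4.0 is named in the submitters' processing notes; how probe sets were summarised and normalised, and on which genome build, is not given in the sources used here. Per the labels' protocols, biotin-labelled cRNA came from 90 ng of total RNA.

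Left out were 6640 control probe sets, leaving 22206. The platform annotation gave 1 symbol to 19572, several to 0 and none to 2634. All 19572 matched RefSeq by Entrez number. The probe set with the highest mean stood for a gene. Background was the 95th percentile of 5222 negative controls per array. Precision is limited by the small number of arrays.

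The group difference was fitted by limma 3.58.1 (lmFit and eBayes, 2-sided) under R 4.3.3, without a replicate block. Benjamini-Hochberg adjustment covered the whole table, with a threshold of 0.05. The fit was tested on simulated data that varied far less within a group than these arrays do. That test checked the code, not the power of the fit here. Other steps ran in Python 3.11.15 (matplotlib 3.10.9, scipy 1.17.1, pandas 2.3.3, numpy 2.4.6). Members, gene lists and marker lists were chosen with earlier results of these data known. Named were the actins, 3 nearest profiles each, the 2 genes of largest range per list and 6 regulators (Srf, Myocd, Mrtfa, Mrtfb, Setd3, Naa80). Marker genes named beside the actins fall outside this rule; their values were known when they were picked. Alternatives were filters on dim probe sets, quantile normalisation, equal medians, an intensity trend, array weights, the replicate block, the 99th percentile as background and leaving out each array.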

Additional observations from a re-analysis of the deposited data

How the results depend on the processing

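No actin gene passed limma's adjusted test under any alternative (smallest adjusted p 0.133, for Actg2 without control 2 and control 3, an alternative added after the data were seen). That fit left control 1 as the only control array, assumed to vary like the MBELN arrays. It called 14 probe sets, where every other alternative called 0, and gave Acta2 -8.34 and Actb -0.30 against 0.06 and 4.24. Array weights gave Acta2 -3.18. Leaving out each array in turn gave log2 differences of 1.93 to 7.73 for Acta1, 0.25 to 6.45 for Actc1, -2.75 to 4.25 for Acta2, -7.27 to 0.28 for Actg2 and -0.27 to 6.51 for Actb. The change of Acta1 minus Actc1 ranged from -4.52 to 4.71, and that of Acta2 minus Actg2 from 2.58 to 5.73.

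With the replicate block Acta1 stood at 4.87 (limma adjusted p = 0.919) and 0 probe sets passed. The labels state no pairing, so the numbers were not taken as pairs. Deviations of same-numbered arrays correlated at 0.11, 0.12 and -0.05, and those of other control and MBELN arrays between -0.18 and 0.10. With different tissue markers on the arrays, these values cannot show whether arrays were paired. Probe sets at an unadjusted p under 0.05 numbered 422, but 197 with the filter at the median, 723 with array weights, 1111 without control 2 and control 3, and 1380 without control 1. Counts of actin genes above background were the same under quantile normalisation and equal medians. With the 99th percentile MBELN 1 had 3 in place of 4. Each measured actin gene has 1 probe set, so averaging probe sets changed nothing.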
